A study of Rattus norvegicus with 35 samples.

Results

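The retinal response to intraorbital nerve crush (IONC) was examined 24 h after the lesion. The comparison rests on the 3 arrays labelled as 24 h after IONC and on replicates 1 to 3 of naive retina, 6 of the 35 arrays of the series, and all genes on the array were tested. Naive replicates 4 and 5 served as a check. They were kept apart because in them the 3′ control probe set of β-actin exceeded the 5′ one by 3.19 and 2.98 on the log2 scale, against 1.75 to 1.90 in naive replicates 1 to 3 and 1.64 to 1.92 at 24 h after IONC. The labels do not say why the arrays differ in this way, and a labelling batch is only how these sets of arrays are described here.

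All animals were adult female Sprague-Dawley rats with no genetic modification stated. In the IONC rats the left optic nerve was crushed with forceps inside the orbit, and naive rats had no surgery, so an effect of the crush and an effect of the surgical approach cannot be told apart. Each array carried RNA from a pool of 4 whole retinas of different animals, and the p-values therefore measure the spread between pools. The other groups used here were retinas at 12 h and 48 h after IONC and at 24 h after intraorbital nerve transection (IONT). Their share of retinal cell types was not measured, and in whole retina fewer cells of a type and less RNA per cell cannot be told apart.

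Damage to the optic nerve cuts the axons of the retinal ganglion cells, whose cell bodies lie in the inner retina. Astrocytes and Müller glia respond by switching on intermediate filaments, acute-phase proteins and cytokine signalling, much of it through the transcription factor STAT3. A separate programme, the integrated stress response, is driven by the transcription factor ATF4, which turns on genes for amino acid transport, amino acid synthesis and the charging of transfer RNAs.

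At 24 h after IONC 8 of 25 measured genes of reactive gliosis were called higher than in naive retina and none lower, and 16 of 32 measured genes of the integrated stress response were called lower and 1 higher. Among called genes the largest increases were in Ccl2, Serpina3n, Lcn2 and Gfap, and the largest decrease was in Mthfd2, a mitochondrial enzyme of one-carbon metabolism and an ATF4 target. Calls required a limma adjusted p under 0.01, positive log odds of a difference (B above 0) and at least a 1.2-fold change. On this rule 374 of 31042 probe sets were called higher and 726 lower. Taken per gene, by the probe set with the highest mean signal, 246 of 14217 genes (1.73%) were called higher and 425 (2.99%) lower, and the median change of all genes was 0.027 on the log2 scale. Of the genes called higher, 94 changed by more than 1 on the log2 scale, and of those called lower, 110.

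**Figure D1:**
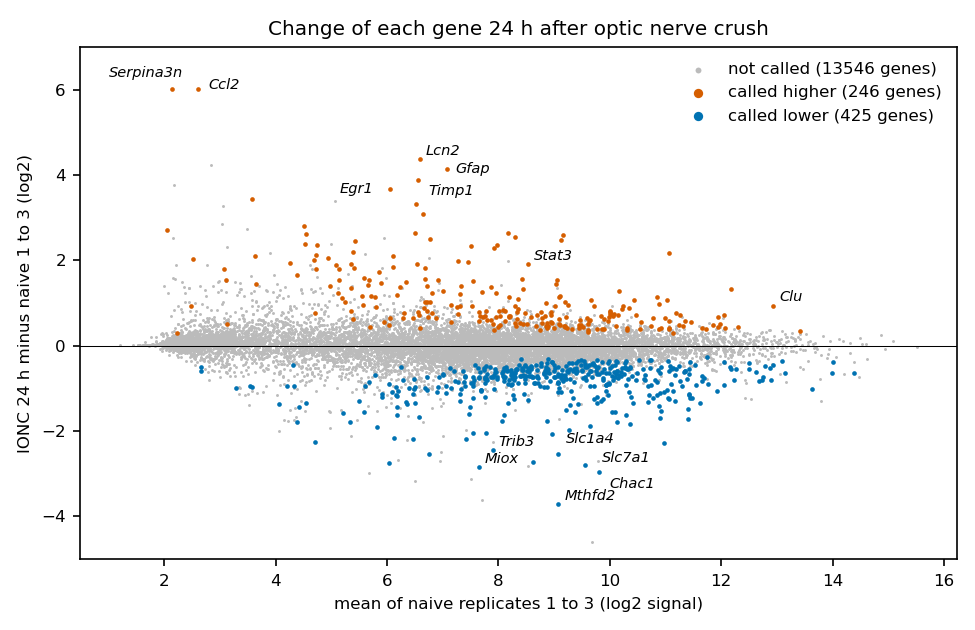
Each point is 1 of 14217 genes, placed by its mean log2 signal in naive replicates 1 to 3 (x axis) and by its log2 change at 24 h after IONC (y axis). The 246 genes called higher are orange, the 425 called lower are blue, and the labelled increases reach higher values than the labelled decreases, with Ccl2 and Serpina3n at a log2 change of 6.02 and Mthfd2 at -3.72.

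These counts changed with the arrays used. With IONC 12 h replicate 2, an array that stands apart from all others (SD of its log2 values 2.30, against 2.89 to 3.03 elsewhere), put back into the estimate of the spread, 80 probe sets were called higher and 198 lower. The 6 arrays alone gave 180 and 247. Leaving out IONC 24 h replicate 2 gave 184 and 358, and leaving out naive replicate 1, 2 or 3 gave 188, 208 or 172 higher and 472, 478 or 444 lower. Against naive replicates 4 and 5, which differed from naive replicates 1 to 3 in 11.9% of genes, 2059 probe sets were called higher and 2490 lower.

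All 3 IONC values lay above all 5 naive values for 204 of the 246 genes called higher (82.9%), and below them for 325 of the 425 called lower (76.5%). Set against naive replicates 4 and 5 alone, 223 of the former (90.7%) were still higher in the mean and 369 of the latter (86.8%) still lower. In all of these 4 other fits (the 6 arrays alone, all 35 arrays, all 5 naive arrays, naive replicates 4 and 5), 23 genes were called higher and 32 lower as in the comparison above. Serpina3n, Lcn2, Gfap, Cebpd, Cp, Edn2, Pdpn, Clu, Mthfd2, Chac1, Slc1a4, Trib3 and Esrrb were among them.

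IONC 24 h replicate 2 had the highest of the 3 lesion values in 113 of the 246 genes called higher (45.9%), and of the 425 genes called lower replicates 2 and 3 had the lowest value in 180 and 183 (42.4% and 43.1%). Markers of pigmented tissue were also higher in it than in the other lesion arrays. Mlana, a melanosome protein, was at 6.87 in replicate 2 and at 2.76 and 2.12 in replicates 1 and 3, against 2.56 to 3.52 in the 5 naive arrays. The melanin enzyme gene Dct was at 11.30 in replicate 2, against 9.31 and 8.44 in the others, and Pmel was at 10.68, against 7.79 and 7.11. Over the 13 measured genes of retinal pigment epithelium, the summed signal was 11.25 to 11.79 in naive replicates 1 to 3 and 11.46 to 13.04 after IONC, no member was called, and its part in the results was not tested.

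Promoter sequences of RefSeq (build GRCr8) were searched from 250 bases before to 50 bases after the start site, on both strands, for the letters bound by these factors. For ATF4 with a C/EBP partner the letters were TGATGNAA, and for STAT proteins TTCNNNGAA. The windows printed here belong to genes whose values are described in the text, with the match in capitals, which reads as the reverse complement of TGATGNAA where the match lies on the opposite strand. No window printed held both motifs. The first 8 come from genes called lower after IONC, and the last 2 from genes called higher. They are a selection, and TTCNNNGAA also stood in the windows, not printed, of Esrrb and Rom1, which were called lower.
Chac1, chr3:126795956-126795979, plus strand: ctccgccgTTGCATCActcctgct
Trib3, chr3:161275539-161275562, minus strand: gctcaggtTTACATCAgccgggcg
Slc7a1, chr12:11664450-11664473, plus strand: cgcgcggcTGATGAAAccggctcg
Slc1a4, chr14:98761782-98761805, minus strand: ctccagcgTTGCATCAtccagcca
Cars1, chr1:208225337-208225360, minus strand: cgccgcggTTGCATCAgattctgg
Mars1, chr7:65023755-65023778, minus strand: cgttccggTTGCATCAgcgtgggc
Iars1, chr17:15193661-15193684, minus strand: tgtcagtaTTGCATCAcctccaga
Tars1, chr2:62114814-62114837, minus strand: gcgtcccgTTGCATCAgctggtta
Serpina3n, chr6:129088261-129088285, plus strand: agtccatgTTCCCAGAAatcatccc
Irf9, chr15:33065729-33065753, plus strand: cacgtgatTTCTAGGAActgcacct

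The matches of Mars1, Trib3, Iars1, Tars1 and Slc7a1 began at positions -17, -21, -24, -27 and -30 from the start site, those of Chac1 and Slc1a4 further before it, at -167 and -235, and that of Cars1 after it, at 18. TGATGNAA stood in the window of 6 of the 15 genes of the integrated stress response list that were called lower and had a window (40%), and in 7 of the 29 measured members of that list with a window (24.1%). It stood in 2.2% of the 11700 tested genes with a window and in 3.82% of all 27457 RefSeq promoters. Among all genes called lower it was found in 18 of 367 (4.9%), and among those called higher in 1 of 202 (0.495%), the gene Il6st. No match was found for Mthfd2, Asns, Ddit3 or Sesn2, which were also called lower, though a gene without a window could give none. TTCNNNGAA stood in 6.93% of the genes called higher, in 4.63% of those called lower and in 6.99% of the genes tested. A match is a description of the letters and no evidence of binding.

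Among the 25 measured genes of reactive gliosis, 8 were called higher and none lower, and the median change was 1.41, against 0.027 over all genes. The intermediate filament of astrocytes and activated Müller glia, Gfap, was at 6.95, 7.16 and 7.13 in naive replicates 1 to 3 and at 11.23, 11.16 and 11.28 after IONC. The groups did not overlap, and the log2 change was 4.14 (SE 0.30, 17.6-fold, limma adjusted p = 3.09e-08). Naive replicates 4 and 5 stood at 9.24 and 9.32, between the groups, and against them the log2 change was 1.94.

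The protease inhibitor gene Serpina3n was at 2.13, 2.09 and 2.18 in naive replicates 1 to 3 and rose to 8.21, 8.78 and 7.45, a log2 change of 6.02 (SE 0.59, 64.7-fold, adjusted p = 1.13e-06). Lcn2, which encodes an iron-siderophore binding acute-phase protein, went from 6.76, 6.37 and 6.63 to 10.82, 11.73 and 10.34 (20.8-fold, SE of the log2 change 0.58, adjusted p = 3.81e-05). In both genes every lesion array lay above all 5 naive arrays. Timp1, an inhibitor of metalloproteinases, rose from 6.96, 6.20 and 6.52 to 10.27, 11.34 and 9.72 (14.8-fold, adjusted p = 6.65e-06), and the call was lost in the 6 arrays alone. Cp, which encodes the ferroxidase ceruloplasmin, rose by 2.60 on the log2 scale (SE 0.22) on its brightest probe set, and all 3 of its probe sets were called higher.

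The rest of the called gliosis genes were Cebpd, a C/EBP transcription factor of the acute-phase response (log2 change 3.32, SE 0.42), the complement gene C3 (1.82, SE 0.24) and Serping1, the C1 inhibitor (1.53, SE 0.30). The call of C3 was lost in the 6 arrays alone and against all 5 naive arrays. It was also lost against naive replicates 4 and 5, where the change of C3 was 0.449. Vim, the other main filament of Müller glia, was at 12.51, 12.44 and 12.29 in naive replicates 1 to 3 and at 12.78, 12.80 and 12.57 after IONC, and its change of 0.30 was not called (adjusted p = 0.322). Nes, Cd44 and Lgals1 also missed the threshold, with changes of 0.32, 0.20 and 0.15. Pdpn, a membrane glycoprotein outside this list, rose by 2.65 (SE 0.40) from naive values of 8.08, 8.22 and 8.21 to 10.65, 11.27 and 10.54.

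**Figure D2:**
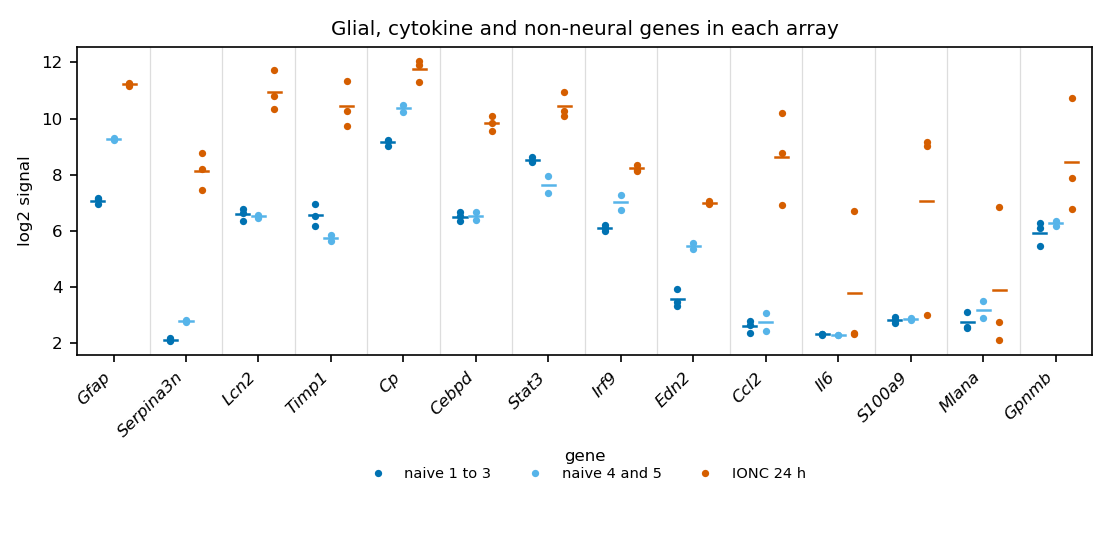
Log2 signal (y axis) of 14 genes (x axis) in naive replicates 1 to 3 (dark blue), naive replicates 4 and 5 (light blue) and IONC 24 h (orange), with 1 point per array and a bar at each group mean. Gfap, Serpina3n, Lcn2 and Timp1 are above all naive arrays in all 3 IONC arrays, whereas Il6 and Mlana are high in replicate 2 alone and S100a9 in replicates 1 and 2.

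Signalling through gp130, the shared receptor subunit of the interleukin-6 family, showed changes in the receptor and its transcription factor. Il6st, which encodes gp130, rose from 10.12, 9.98 and 9.996 to 10.87, 10.79 and 10.64 (log2 change 0.74, SE 0.11, adjusted p = 0.000143), and all 4 of its probe sets were called. Stat3 rose from 8.62, 8.46 and 8.50 to 10.11, 10.26 and 10.93 (log2 change 1.91, SE 0.22, adjusted p = 6.23e-06). Of the 19 measured genes of JAK-STAT signalling, Stat3 and the kinase gene Jak3 (2.11, SE 0.38) were called higher, against 1.73% of all genes. Pias3, an inhibitor of STAT3, was called lower (-0.53, SE 0.13), and this call was lost in 14 of 19 alternatives, cyclic loess and 5 of the 6 arrays left out in turn among them. Socs3, the feedback inhibitor of this pathway, was at 4.06, 2.67 and 2.79 after IONC and at 2.23 to 2.26 in naive replicates 1 to 3, and its change was not called (adjusted p = 0.421).

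Of 12 measured gp130 cytokines and receptors Il6st alone was called. Il6 was at 6.72 in IONC replicate 2 and at 2.36 and 2.34 in replicates 1 and 3, against 2.30 to 2.34 in the 5 naive arrays. Irf9, the DNA-binding partner of the STAT dimer of interferon signalling, was called higher (log2 change 2.11, SE 0.34). It was the only one called of 28 measured interferon response genes, against 1.73% of all genes called higher, and the median of that list was 0.60. Edn2, which encodes endothelin-2, a peptide that photoreceptors release after injury, rose from 3.32, 3.47 and 3.95 to 6.96, 7.08 and 6.99, or by 3.43 (SE 0.30, adjusted p = 2.1e-07). Naive replicates 4 and 5 were at 5.38 and 5.57.

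Immediate early and related transcription factors moved in opposite directions. Egr1 was at 6.61, 6.62 and 4.91 in naive replicates 1 to 3 and at 9.72, 9.88 and 9.55 after IONC (12.7-fold, adjusted p = 1.22e-06). Junb and Fos were called higher, by 2.46 (SE 0.46) and 1.96 (SE 0.37). Atf3, a factor known for its induction in injured neurons, was lower instead, at 9.32, 9.45 and 9.34 in naive replicates 1 to 3 and at 7.80, 7.81 and 7.84 after IONC (log2 change -1.56, SE 0.26).

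Jun, a further AP-1 factor of injured neurons, was also called lower, by -1.35 (SE 0.22) from 11.48, 11.73 and 11.68 to 10.30, 10.23 and 10.32. Naive replicates 4 and 5 were at 9.36 and 9.73, below the lesion arrays, and against them the change was 0.74 and not called, so the direction for Jun is set by which naive arrays are used. For Atf3 the change against naive replicates 4 and 5 kept its direction, at -0.73, and was not called. Of the 33 measured regeneration-associated genes, Il6st was called higher and Atf3 and Jun lower, where 1.73% of all genes were called higher and 2.99% lower. Gap43 (log2 change -0.04) and Sox11 (0.10) were not called.

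Of the 32 measured genes of the integrated stress response and ATF4 targets, 16 were called lower and 1, Cebpb, higher, while 15 were not called. The median change was -0.63, and 7 members had a change above 0. For 21 members all 3 lesion arrays lay below all 5 naive arrays. Over all genes 16.1% had all 3 lesion arrays below naive replicates 1 to 3, and the share below all 5 cannot exceed that. Against naive replicates 4 and 5 alone 15 members were called lower. The count of members called lower was 12 in the 6 arrays alone, 6 with all 35 arrays and 13 to 15 with any 1 of the 6 arrays left out.

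Atf4 itself was at 13.09, 13.19 and 13.16 in naive replicates 1 to 3 and at 12.61, 12.56 and 12.39 after IONC, a log2 change of -0.63 (SE 0.11, adjusted p = 0.00102) whose call was lost in the 6 arrays alone and against naive replicates 4 and 5. Ddit3, which encodes the ATF4-induced factor CHOP, fell by 0.92 on the log2 scale (SE 0.13). The pseudokinase gene Trib3 went from 7.91, 7.85 and 7.92 to 5.85, 5.46 and 5.05 (log2 change -2.44, SE 0.33, adjusted p = 4.88e-05), with all 3 probe sets called lower. Chac1, a glutathione-degrading enzyme, went from 9.70, 9.66 and 10.04 to 7.13, 6.87 and 6.57, which is 7.72-fold lower (SE of the log2 change 0.39). In none of these genes did a lesion array reach the lowest naive array.

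Mthfd2 was at 8.96, 8.99 and 9.27 in naive replicates 1 to 3, at 8.91 and 8.68 in naive replicates 4 and 5, and at 5.74, 5.12 and 5.21 after IONC. Its change of -3.72 (SE 0.50, 13.1-fold lower, adjusted p = 4.37e-05) was the largest decrease among all called genes. Sesn2, an inhibitor of mTORC1, was 3.90-fold lower (SE of the log2 change 0.22). Asns, asparagine synthetase, went from 11.30, 11.49 and 11.44 to 10.09, 9.96 and 9.74 (log2 change -1.48, SE 0.34). The call of Asns was lost with any 1 of the 6 arrays left out, with all 35 arrays and with cyclic loess, at changes of -2.001 to -1.37 over all alternatives. The serine synthesis genes Psat1 and Phgdh, at -0.62 and -0.76, missed the threshold (adjusted p = 0.0126 and 0.0707), and against naive replicates 4 and 5 the change of Phgdh was 0.80. Psph, the last enzyme of that pathway, was called lower, at -0.83.

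Amino acid carriers were among the largest decreases. Slc7a1, the cationic amino acid carrier CAT-1, went from 9.38, 9.55 and 9.73 to 7.03, 6.77 and 6.51 (6.89-fold lower, adjusted p = 7.28e-05), and Slc1a4, a carrier of neutral amino acids, from 9.22, 9.06 and 8.91 to 6.78, 6.52 and 6.29 (5.79-fold lower, adjusted p = 1.51e-07). Slc38a2, a further carrier of neutral amino acids, fell by 0.95 on the log2 scale (SE 0.11). Slc7a11 and Slc3a2, the subunits of the cystine carrier, were not called, at 0.36 and -0.35.

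**Figure D3:**
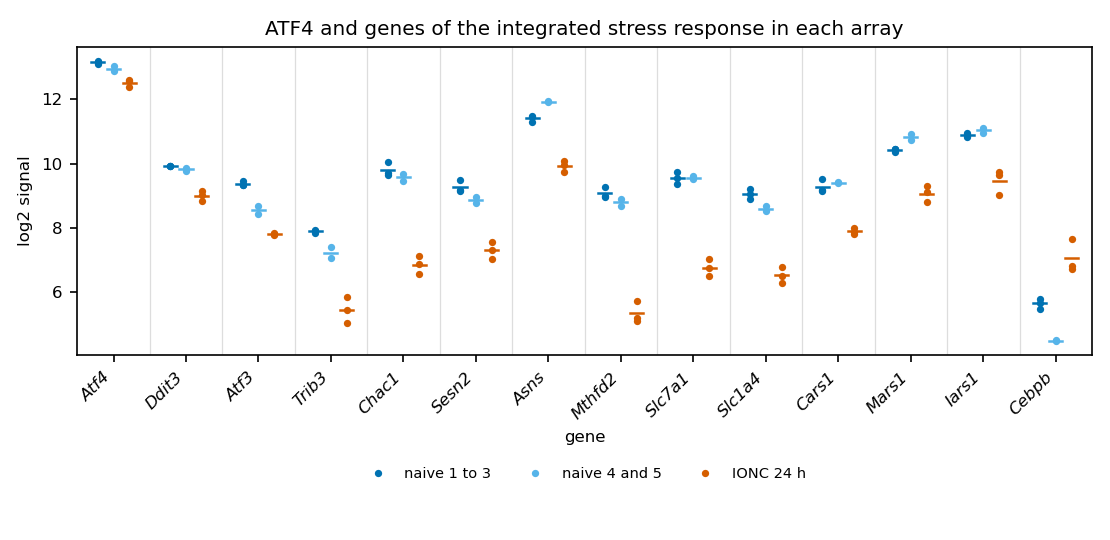
Log2 signal (y axis) of 14 genes (x axis) in naive replicates 1 to 3 (dark blue), naive replicates 4 and 5 (light blue) and IONC 24 h (orange), with 1 point per array and a bar at each group mean. Apart from Cebpb, which is higher, every gene shown lies lower in all 3 IONC arrays than in all 5 naive arrays, from Atf4 at -0.63 to Mthfd2 at -3.72 against naive replicates 1 to 3.

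The enzymes that charge transfer RNAs in the cytosol were taken as a further list after their values had been seen, so its counts are a description. Of 22 measured members 6 were called lower and none higher, against 2.99% and 1.73% of all genes, and the median was -0.30. In 12 members all 3 lesion arrays lay below all 5 naive arrays, and 16.1% of all genes had them below naive replicates 1 to 3. Cars1, the cysteinyl enzyme, fell by 1.39 (SE 0.22) with all 4 probe sets called lower. Mars1 was at 10.44, 10.45 and 10.37 in naive replicates 1 to 3 and at 9.29, 9.11 and 8.81 after IONC (log2 change -1.35, SE 0.22). Iars1, Tars1, Yars1 and Nars1 were lower by changes of -1.41, -1.29, -1.15 and -0.63. Sars1 (-0.28) and Wars1 (0.20) were not called, and of the 13 measured mitochondrial enzymes Hars2 was called, at -0.69.

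Chaperones of the endoplasmic reticulum, which belong to other branches of the stress response, did not share that direction. Of 21 measured, 3 were called higher and 1 lower, against 1.73% and 2.99% of all genes, and the median was 0.40. Calr (0.97, SE 0.18), Sdf2l1 (1.55, SE 0.30) and Dnajb11 (0.51, SE 0.11) were the higher ones. Herpud1, a degradation factor that ATF4 also controls, fell from 11.02, 10.91 and 11.003 to 9.91, 9.78 and 9.98 (log2 change -1.09, SE 0.11, adjusted p = 1.25e-06). Hspa5, the main chaperone, changed by 0.53 and was not called (adjusted p = 0.0899). With all 35 arrays no member was called higher, and against all 5 naive arrays 7 were.

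**Figure D4:**
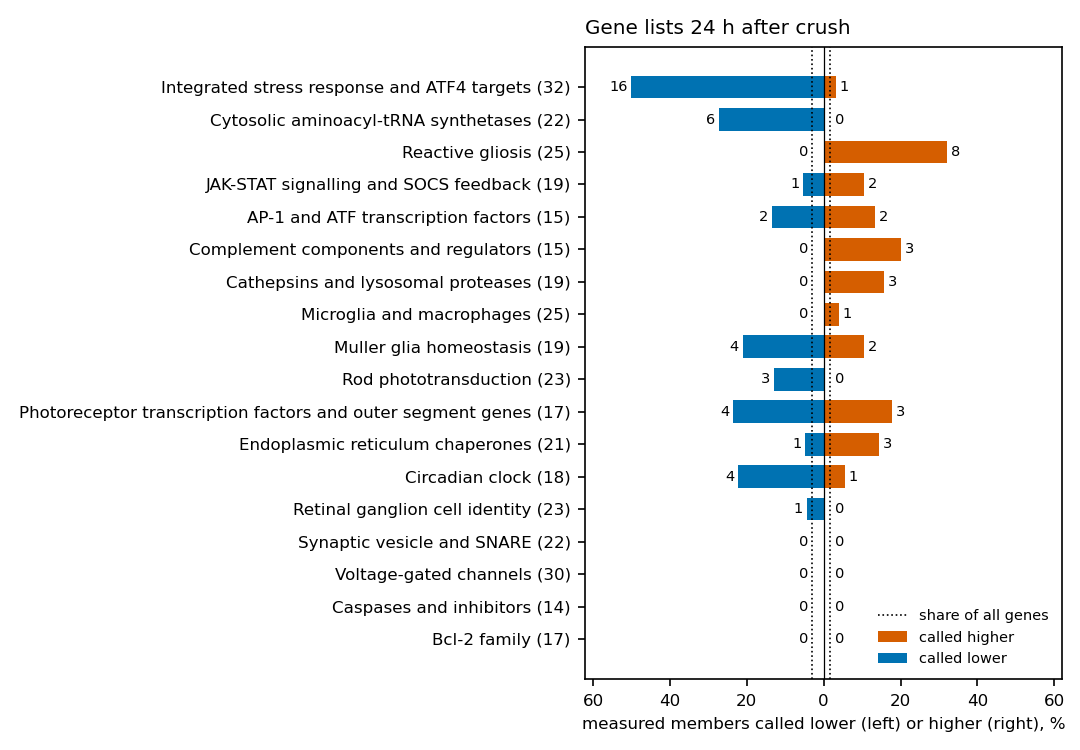
Share of the measured members of 18 gene lists (number measured in parentheses) called higher (orange, to the right) or lower (blue, to the left) at 24 h after IONC, with the number called beside each bar. Dotted lines mark the share of all genes, 1.73% higher and 2.99% lower, and the longest bars are the 16 of 32 genes of the integrated stress response called lower and the 8 of 25 genes of reactive gliosis called higher.

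Few members of each inflammatory list were called higher, as were 1.73% of all genes. More members had a change above 0. These were 16 of 20 measured chemokines, 23 of 25 microglia and macrophage genes, 14 of 15 complement genes and 14 of 19 cathepsins and lysosomal proteases. The median of all genes was itself above 0, at 0.027, and that of the chemokines was no higher, at 0.026. The medians were 0.56 for microglia and macrophages, 0.18 for complement and 0.22 for cathepsins and lysosomal proteases. Ccl2, the monocyte chemokine, had the widest spread of the largest increases, from 2.81, 2.39 and 2.65 in naive replicates 1 to 3 to 8.78, 10.19 and 6.92 after IONC (log2 change 6.02, SE 1.26, adjusted p = 0.00381). It was the only one called of 20 measured chemokines. The call was lost in 8 of 19 alternatives, which were the 6 arrays alone, all 35 arrays, naive replicates 4 and 5, any of naive replicates 1 to 3 left out and IONC 24 h replicate 1 or 2 left out, while the change stayed between 5.24 and 6.87. Cxcl1 was at 9.54 in IONC replicate 2 and at 2.29 and 2.22 in the other lesion arrays. Ptgs2, the inducible cyclooxygenase, was called at 2.62 (SE 0.58) with lesion values of 6.83, 8.46 and 6.18, and Alox5ap, which presents arachidonic acid to 5-lipoxygenase, at 2.81 (SE 0.36). The call of Ptgs2 was lost in 7 of 19 alternatives and that of Alox5ap in 1.

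Among 25 measured genes of microglia and macrophages, 1 was called higher, Tyrobp, an adaptor of their receptors (log2 change 2.03, SE 0.35), from 2.30, 2.27 and 3.01 to 4.66, 5.03 and 3.99. The list's median was 0.56, its summed signal was 9.74 to 10.11 in naive replicates 1 to 3 and 10.47 to 11.71 after IONC, and Aif1, a defining marker, changed by 1.02 and was not called. Cd68 was at the floor in every array, 1.74 to 1.80. Of 15 complement genes C1r, C3 and Serping1 were called higher, and of 19 cathepsins and lysosomal proteases Ctsa, Ctsc and Ctsz were called higher (0.69, 1.48 and 1.39). Both counts fell to 1 without naive replicate 1. The calls of Ctsc and Ctsz were lost in 9 and 7 of 19 alternatives.

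The neutrophil genes S100a9 and S100a8 separated the lesion arrays from each other. S100a9, a calcium-binding protein of neutrophils, was at 9.03 and 9.17 in IONC replicates 1 and 2 and at 2.99 in replicate 3, against 2.72 to 2.94 in the 5 naive arrays. S100a8, its partner, was at 7.63, 6.87 and 3.18. Neither change was called (adjusted p = 0.0667 and 0.109), nor was any other of the 13 measured genes of neutrophils and lymphocytes. The median change over that list was 0.036.

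The genes chosen by the study for polymerase chain reaction were picked from these arrays and are no independent evidence of direction. Of 9 measured, 7 were called higher, namely Ccl2, Lcn2, Tnfrsf1a, Litaf, Ahr, Calr and Clu. Tnfrsf1a, the main receptor of tumour necrosis factor, rose from 4.59, 4.63 and 4.38 to 6.76, 7.47 and 6.54 (log2 change 2.39, SE 0.43, adjusted p = 0.00101). Litaf, a factor of lipopolysaccharide-induced TNF expression, rose by 2.29 (SE 0.28), and Clu, which encodes the extracellular chaperone clusterin, by 0.94 (SE 0.12) from 12.93, 12.89 and 12.96 to 13.80, 13.79 and 14.02. Eef2k (-0.08) and Tnfrsf12a (1.24) were not called. Ahr, the aryl hydrocarbon receptor, rose by 1.72 (SE 0.35). Its call was lost in 7 of 19 alternatives, the 6 arrays alone and any of naive replicates 1 to 3 left out among them.

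None of 14 measured caspases and inhibitors and none of 17 Bcl-2 family members passed the threshold, where the shares of all genes called (1.73% higher and 2.99% lower) would give under 1 in each list, with medians of 0.03 and 0.03, and Casp8 had the largest change of the former (0.78, adjusted p = 0.0375). Tnfaip3, an inhibitor of NF-kappa B that TNF induces, fell from 10.89, 10.92 and 10.92 to 9.64, 9.40 and 9.09 (log2 change -1.53, SE 0.17, adjusted p = 4.01e-06). Of the 37 measured genes of the study's death-signalling map, 8 were called higher and 2 lower, and without IONC 24 h replicate 2 the counts were 3 and 1. The map was drawn from genes found regulated in these arrays, so its counts are no independent evidence.

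Müller glia genes of retinal homeostasis moved in both directions, 2 of 19 called higher and 4 lower, against 1.73% and 2.99% of all genes. Crym, a thyroid hormone binding protein, rose from 12.10, 12.18 and 12.25 to 13.45, 13.58 and 13.47 (log2 change 1.32, SE 0.13, adjusted p = 1.14e-06). Glul, glutamine synthetase, was called lower, from 12.85, 12.81 and 12.97 to 12.23, 12.47 and 12.39 (log2 change -0.51, SE 0.12), and the call was lost in 13 of 19 alternatives, any 1 of the 6 arrays left out among them. Car14, a membrane carbonic anhydrase, fell by 1.32 (SE 0.27), the taurine carrier gene Slc6a6 by 0.79 (SE 0.15), and Abca8a by 0.65 (SE 0.11). The water channel gene Aqp4 changed by 0.47 and was not called. Without IONC 24 h replicate 2, 1 gene of the list was called lower.

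Some photoreceptor genes were lower. Of 23 measured genes of rod phototransduction 3 were called lower and none higher, with a median of -0.18. Over all genes 2.99% were called lower and 1.73% higher. Grk1, rhodopsin kinase, went from 11.38, 11.41 and 11.42 to 9.84, 9.51 and 9.69 (3.31-fold lower, adjusted p = 1.75e-05), and Gnat1, rod transducin, from 14.42, 14.41 and 14.30 to 13.84, 13.61 and 13.77 (log2 change -0.64, SE 0.10). Gnb5 was the remaining one, at -0.55. Against naive replicates 4 and 5 the change of Grk1 was -0.87 and not called.

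Opn1sw, the short-wavelength cone opsin, was at 9.39, 9.04 and 9.21 in naive replicates 1 to 3 and at 8.05, 7.22 and 7.87 after IONC (log2 change -1.50, SE 0.29). Naive replicates 4 and 5 were at 8.32 and 8.19, and against them the change of -0.54 was not called. The cone transducin subunit Gnb3 rose by 1.45 (SE 0.22). Of 17 photoreceptor transcription factors and outer segment genes 3 were called higher (Impg2, Fscn2 and Prom1) and 4 lower (Impg1, Crx, Otx2 and Rom1), and without IONC 24 h replicate 2 none was called lower. Crx was at 10.73 and 11.04 in naive replicates 4 and 5, below its 3 lesion values, so its direction also turned with the naive arrays. The change of Prom1 was 0.725, and against naive replicates 4 and 5 it was 0.115 and not called. Esrrb, a nuclear receptor of rods, fell from 10.82, 11.10 and 11.004 to 8.90, 8.63 and 8.53 (4.88-fold lower, adjusted p = 1.75e-06).

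Of 23 measured identity genes of retinal ganglion cells 1 was called, Eomes, a factor of a subset of these cells (log2 change -0.94, SE 0.21), which is near the share of all genes called (1.73% higher and 2.99% lower), and the median was -0.16. The call of Eomes was lost with any 1 of the 6 arrays left out, with all 35 arrays and in the 6 arrays alone. Thy1 was at 9.75, 9.62 and 9.47 in naive replicates 1 to 3 and at 9.32, 9.44 and 9.33 after IONC, and Sncg at 11.87, 11.68 and 11.70 and at 11.39, 11.39 and 11.55. Their changes of -0.25 and -0.30 were not called (adjusted p = 0.439 and 0.434), and against naive replicates 4 and 5 they were 0.99 and 0.37. No member was called among 21 amacrine, 7 horizontal, 22 synaptic vesicle, 29 transmitter receptor and 30 voltage-gated channel genes, at medians of 0.03, -0.04, -0.01, 0.02 and -0.10. Of 10 bipolar cell genes only Otx2, shared with photoreceptors, was called.

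Of the clock genes, 4 of 18 were called lower and 1 higher, against 2.99% and 1.73% of all genes. Bmal1, the core activator, was at 10.38, 10.26 and 10.39 in naive replicates 1 to 3 and at 9.39, 9.08 and 9.32 after IONC, and naive replicates 4 and 5 were at 9.48 and 9.34, among the lesion values. Nfil3 fell by 1.33 (SE 0.16) and lay below all 5 naive arrays. Cry1 and Bhlhe41 were the others called lower and Bhlhe40 was called higher. The calls of Cry1 and Bhlhe40 were lost with any 1 of the 6 arrays left out, with all 35 arrays and in the 6 arrays alone, and that of Bhlhe41 in 9 of 19 alternatives. The time of day of tissue collection is not given in the sources used here and its part was not tested.

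Metabolic and housekeeping lists had small median changes, with larger decreases in some glycolysis and cell cycle genes. Over all genes the median was 0.027, and 1.73% were called higher and 2.99% lower. Of 42 measured genes of oxidative phosphorylation 36 had a change above 0, with a median of 0.17, and 1 was called, Cox6b1 (0.41, SE 0.09). Of 36 ribosomal protein genes 33 lay above 0, with a median of 0.19, and Rpl19 was called (0.34). Both counts of calls were near the share of all genes. Without naive replicate 1 none was called in either list, and against naive replicates 4 and 5 the counts were 19 and 22. Glycolysis had 2 of 21 genes called lower, Hk2 (-1.88) and the lactate carrier gene Slc16a1 (-0.54). Of 31 cell cycle genes 3 were called lower, among them Prc1, a spindle protein (-1.77, SE 0.21), and Tyms, thymidylate synthase (-1.62, SE 0.20).

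Of 21 genes of iron handling and antioxidant defence 4 were called higher and 1 lower, against 1.73% and 2.99% of all genes. Mt2A, a metallothionein, was at 6.88, 6.77 and 6.68 in naive replicates 1 to 3 and at 8.93, 10.18 and 8.72 after IONC (log2 change 2.50, SE 0.37, adjusted p = 0.000148), and the call was lost in the 6 arrays alone. Gpx1, glutathione peroxidase, and Txnrd1, thioredoxin reductase, rose by 0.92 and 0.59, and Cp, described above, was the fourth. Mt3, the neuronal metallothionein, was called lower (-0.86), but naive replicates 4 and 5 were at 8.39 and 8.65, among the lesion values. All 15 measured genes of class I antigen processing lay above 0, with a median of 0.45, against 0.027 over all genes. Psme1 and Erap1 were called, at 0.83 and 0.78. Without naive replicate 3 neither was.

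Of 9 measured genes of class II antigen presentation 1 was called lower, against 2.99% of all genes. This was Ciita, the activator of class II genes (-2.18, SE 0.39). Against naive replicates 1 to 3 the other members lay above 0, with a median of 0.97 over the list, and none of them was called. RT1-Da, a class II chain, changed by 1.89 (adjusted p = 0.159) and Cd74, the invariant chain, by 0.97 (adjusted p = 0.358), which against naive replicates 4 and 5 was -0.50. The call of Ciita was lost in the 6 arrays alone.

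Further large changes were in genes of no list, apart from Hk2. Mgp, matrix Gla protein, was called at 3.09 (SE 0.57) with lesion values of 9.003, 11.53 and 8.68, of which that of replicate 2 was the highest. Kif11, a mitotic kinesin, and Mlf1 rose by 2.72 and 2.65, and their calls were lost in 6 and 4 of 19 alternatives. Decreases were found in Miox, which degrades inositol (-2.85, SE 0.43), in the laminin gene Lamb3 (-2.75), in Tmem116 (-2.73, SE 0.31), in Rgs22 (-2.54), in Irx4 (-2.25), in Dennd2c (-2.15), in Lamp3 (-2.07) and in the spindle gene Spag5 (-2.05). Hk2, hexokinase 2, fell from 9.42, 9.50 and 9.997 to 8.30, 7.64 and 7.32 (-1.88, SE 0.35), but its naive replicates 4 and 5 were at 7.74 and 8.06, among the lesion values.

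Markers of neighbouring tissues were also measured, and none of 17 lens, 18 extraocular muscle, 5 red blood cell, 10 optic nerve glia and 9 ciliary body, iris and cornea genes was called. In lists this short the shares of all genes called (1.73% higher and 2.99% lower) would give few or no calls. Lens genes varied widely between arrays, and 15 of the 17 had a change below 0, with a median of -1.11. Crygb, a γ-crystallin of the lens, was at 9.72, 11.10 and 6.46 in naive replicates 1 to 3 and at 6.70, 10.66 and 4.76 after IONC. Their summed signal was 15.91 to 17.11 in naive replicates 1 to 3 and 15.28 to 16.25 after IONC, and its part in the results was not tested. Krt13, an epithelial keratin looked at after its value was seen, was at 9.69, 8.45 and 7.46 in the former and at 4.66, 4.73 and 7.77 in the latter, and its change of -2.81 was not called (adjusted p = 0.326).

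The response at 24 h was then set against that at 12 h (replicates 1 and 3, since replicate 2 stands apart). Few genes differed, 23 of 14217 (0.162%), of which 5 were higher at 24 h and 18 lower. The higher ones included the photoreceptor genes Opn1sw, Gnat1, Cnga1 and Prph2. Opn1sw was at 4.33 and 5.96 at 12 h and at 8.05, 7.22 and 7.87 at 24 h (log2 difference 2.57, SE 0.32, adjusted p = 0.00013). Gnat1 was at 13.06 and 12.99 at 12 h (difference 0.72, SE 0.11), and Cnga1, Prph2 and Ankrd33b differed by 0.46, 0.33 and 1.203.

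Genes lower at 24 h than at 12 h included an activator of gp130 and a complement subunit. Clcf1, a cytokine of the interleukin-6 family, was at 5.80 and 5.59 at 12 h and at 3.58, 3.79 and 3.37 at 24 h (difference -2.12, SE 0.22, adjusted p = 1e-05), while naive replicates 1 to 3 were at 3.31, 3.28 and 3.12. C1qb, a subunit of C1q, was at 8.29 in both arrays at 12 h and at 6.11, 5.81 and 6.13 at 24 h (difference -2.27, SE 0.37). Slc2a5, the fructose transporter of microglia, was at 5.43 and 4.63 at 12 h and within 2.35 to 2.39 at 24 h (difference -2.67, SE 0.30). Rnf125 and Pctp differed by -1.34 and -1.30. The 39 probe sets called became 67 without IONC 12 h replicate 1 and 135 without replicate 3, and none was called when the 5 arrays were fitted alone with limma, where 3046 had an unadjusted p under 0.05.

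Against 48 h after IONC, 22 genes (0.155%) differed, 11 higher at 24 h and 11 lower. The higher ones were led by neuronal and ganglion cell genes. Nefh, the heavy neurofilament, was at 9.68, 9.77 and 9.79 at 24 h and at 7.44, 8.22 and 8.28 at 48 h (difference 1.77, SE 0.27, adjusted p = 0.00243). Nrn1 differed by 1.80 (SE 0.31), Rbpms2, an RNA-binding protein of ganglion cells, by 1.72 (SE 0.29), Fxyd7 by 2.20 and Tmod2 by 1.33. Sncg, Thy1 and Nefl differed by 1.26, 1.21 and 1.04.

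Of the 23 measured ganglion cell identity genes 5 were called higher at 24 h than at 48 h, as were 11 of all 14217 genes. Lower at 24 h were Ecel1, an endopeptidase induced in injured neurons (2.09, 2.11 and 2.58 at 24 h, 4.29, 6.29 and 4.82 at 48 h, difference -2.87, SE 0.37), and Esrrb (difference -1.55, SE 0.24), with 9.91, 10.31 and 10.48 at 48 h. Tbata, Fam110a and Homer3 differed by -1.54, -1.26 and -1.26. The 32 probe sets became 13 and 9 without IONC 24 h replicate 2 and 3, 10 and 296 without IONC 48 h replicate 1 and 3, and 8 with all 35 arrays. None was called with limma in the 6 arrays alone, where 2177 had an unadjusted p under 0.05.

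**Figure D5:**
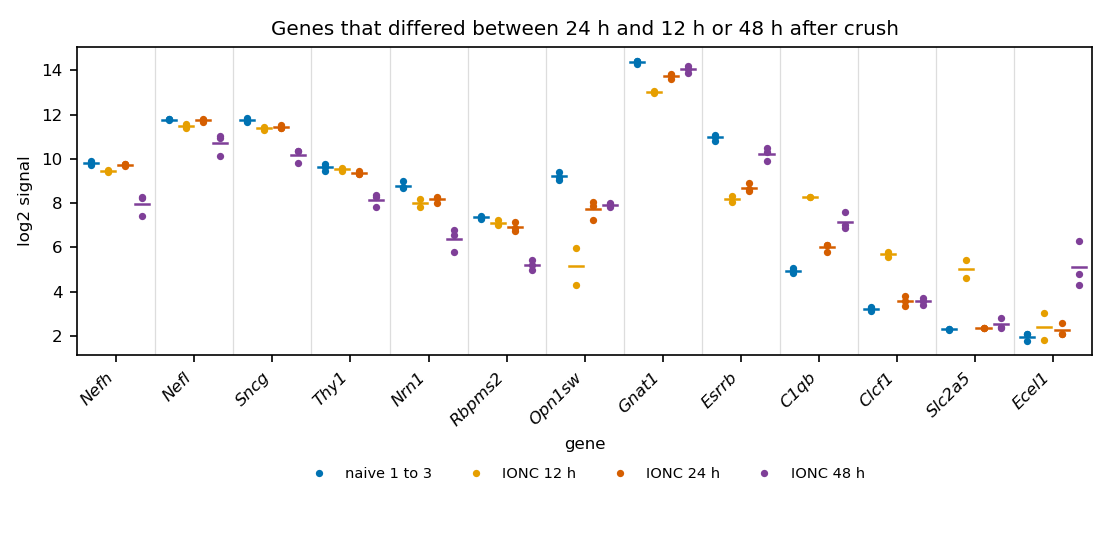
Log2 signal (y axis) of 13 genes (x axis) in naive replicates 1 to 3 (blue) and at 12 h (yellow, 2 arrays), 24 h (orange) and 48 h (purple) after IONC, with 1 point per array and a bar at each group mean. Nefh, Sncg, Thy1, Nrn1 and Rbpms2 are lower at 48 h than at 24 h, Opn1sw and Gnat1 are lowest at 12 h, and Clcf1 and Slc2a5 are highest at 12 h.

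The 2 lesions were compared at 24 h as IONC minus naive replicates 1 to 3 against IONT minus naive replicates 4 and 5, since the IONT arrays at 24 h had β-actin differences of 3.65 and 3.22. Here 85 genes (0.598%) differed, 15 with a higher change after IONC and 70 with a lower one. Gfap was at 10.34 and 10.65 after IONT, and its change after IONC was larger by 2.92 (SE 0.47, adjusted p = 0.00114), a difference that includes the change of -2.20 between the naive sets. Jun was at 10.17 and 10.41 after IONT, at the level seen after IONC, and its difference of -2.09 (SE 0.35) is as large as the change of 2.09 between the naive sets.

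Smim24 (1.85), Kndc1 (1.40), Ston2 (-2.56) and Ubn1 (-2.32) also differed, and in each of them the naive sets lay further apart than the lesion groups. Hook3, a microtubule linker, was at 6.14 and 6.73 in naive replicates 4 and 5 and at 7.54 and 7.34 after IONT, but went from 6.52, 6.45 and 6.74 to 4.87, 4.79 and 5.07 after IONC (difference -2.67, SE 0.50). Plekhh1 (-2.002), Serpina12 (1.44) and Pgls (1.18) were the remaining ones named. The 252 probe sets called became 160 when IONC 24 h replicate 2 was left out, 448 when IONT 24 h replicate 2 was, 509 when naive replicate 5 was, and 73 with all 35 arrays.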

How the data were processed

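RNA from pools of 4 rat retinas was hybridised to Affymetrix RAE230.2 arrays. The authors background-corrected, normalised and summarised the scans with GCRMA, and the deposited values are log2 signals of 31099 probe sets on 35 arrays. The submitters' processing notes name GCRMA and limma without versions. Scanner files were not used here, so another background correction and scan date as a block could not be tried.

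Groups and replicate numbers come from the labels. After 57 control probe sets were left out, 31042 probe sets were fitted in limma 3.58.1 (R 4.3.3), with 1 coefficient per group over 34 arrays, IONC 12 h replicate 2 left out and the naive arrays as 2 groups, the sets being told apart by a β-actin 3′ minus 5′ difference above 2.4. Residual degrees of freedom were 21. p-values were adjusted by the Benjamini-Hochberg method over all probe sets. The number of arrays limits the precision.

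The platform annotation gave 1 symbol for 20826 probe sets, several for 436 and none for 9780, and of several probe sets for 1 of the 14217 genes, the brightest on average was used. Named genes were the 15 largest increases and decreases among called genes beyond all 5 naive arrays, up to 4 members per list and those needed to describe it, the study's own genes and the 5 largest differences each way in the other comparisons. Mlana, Dct, Pmel, Il6, Cxcl1, S100a8, S100a9, Krt13 and Crygb were singled out after their values were seen. The comparison and the 62 gene lists were chosen with earlier results of these data known, and 2 lists of transfer RNA synthetases were added afterwards. The script was tested on simulated data. The alternatives are given in the closing section.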

Additional observations from a re-analysis of the deposited data

Results flagged for a closer look

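Among the 163 named genes, 1 of the 5 naive arrays stood far from the rest in 9. Chance alone marks about 1 in 20 groups, and 9 of 163 is near that rate. The rule takes the 5 naive arrays as 1 group, although replicates 1 to 3 differed from replicates 4 and 5 in 11.9% of genes. The outlying log2 signal was 8.868 for Ankrd33b, 3.268 for Fxyd7, 11.443 for Nefl and 14.408 for Prph2, all the lowest of the naive arrays, and 1.781 for Cd68, 3.180 for Cxcl1, 6.384 for Dennd2c, 9.122 for Fscn2 and 3.010 for Tyrobp, all the highest.

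The response at 24 h differed from that at 12 h by the limma test of the difference, on the log2 scale, in Ankrd33b (1.203), Cnga1 (0.456), Gnat1 (0.720), Opn1sw (2.572) and Prph2 (0.325), which were higher at 24 h, and in C1qb (-2.274), Clcf1 (-2.119), Pctp (-1.300), Rnf125 (-1.335) and Slc2a5 (-2.666), which were lower.

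Against 48 h, Fxyd7 (2.197), Nefh (1.769), Nefl (1.037), Nrn1 (1.799), Rbpms2 (1.716), Sncg (1.256), Thy1 (1.210) and Tmod2 (1.328) were higher at 24 h, and Ecel1 (-2.873), Esrrb (-1.545), Fam110a (-1.264), Homer3 (-1.256), Psph (-0.722) and Tbata (-1.540) were lower.

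Between the lesions at 24 h, the change after IONC was above that after IONT in Gfap (2.922), Kndc1 (1.402), Pgls (1.179), Serpina12 (1.436) and Smim24 (1.852), and below it in Hook3 (-2.665), Jun (-2.090), Otx2 (-0.998), Plekhh1 (-2.002), Ston2 (-2.556) and Ubn1 (-2.324). Each lesion was set against its own naive arrays, and lesion and naive set enter these differences together.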

How the results depend on the processing

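For IONC 24 h against naive replicates 1 to 3, the counts of probe sets called higher and lower moved by over 1.5 times with all 35 arrays (80 and 198), in the 6 arrays alone (180 and 247), against naive replicates 4 and 5 (2059 and 2490), at an adjusted p under 0.05 with no threshold on B (804 and 1407) and with array weights (1226 and 1559). With 1 array left out they ranged from 172 to 283 and from 358 to 640, lowest without naive replicate 3 and without IONC 24 h replicate 2. The share of higher calls was 34.0%, and 45.3% against naive replicates 4 and 5. Cyclic loess gave 435 and 643 (40.4% higher), and arrays centred on their medians 399 and 714. The cause of these moves was not tested.

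Against 12 h the 39 calls became 0 in the groups alone (3046 at an unadjusted limma p under 0.05) and 26 to 135 with 1 array left out. Against 48 h the 32 calls became 8 with all 35 arrays, 0 in the groups alone (2177 at an unadjusted limma p under 0.05) and 9 to 296 with 1 array left out. For the lesions the 252 calls became 73 with all 35 arrays, 115 in the groups alone and 160 to 509 with 1 array left out. Between the naive sets the 4062 calls became 2318 with all 35 arrays and 2619 to 3485 with 1 naive array left out, lowest without naive replicate 4. Where an array left out leaves a group with 1 sample, that sample is assumed to vary like the other groups.

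Of the 107 named genes called, 21 were called under all alternatives run, namely Cars1, Cebpd, Chac1, Clu, Cp, Crym, Edn2, Esrrb, Gfap, Herpud1, Jak3, Lcn2, Litaf, Mars1, Mthfd2, Pdpn, Serpina3n, Slc1a4, Tmem116, Tnfaip3 and Trib3. The call was lost for 53 in the 6 arrays alone, for 57 with all 35 arrays, for 15 against all 5 naive arrays and for 42 against naive replicates 4 and 5. Against the latter the change was 0.55 for Crx, 0.74 for Jun and 0.95 for Ubn1, each called lower above, and it was -1.51 for Kndc1, 2.05 for Ston2 and 0.99 for Thy1, which were not called above and whose sign also turned. The call was lost in 8 or more of the 19 alternatives for 21 of the called genes, namely Asns, Bhlhe40, Bhlhe41, C1r, Ccl2, Cox6b1, Crx, Cry1, Ctsc, Dnajb11, Eomes, Erap1, Glul, Mt3, Otx2, Pias3, Rom1, Rpl19, Slc16a1, Txnrd1 and Ubn1, and with each of the 6 arrays left out in turn for Asns, Bhlhe40, Cox6b1, Cry1, Eomes, Glul and Rpl19. The sign turned under some alternative for 24 named genes, of which Crx, Jun and Ubn1 were called.

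With the replicate number as a block, 404 probe sets were called higher and 706 lower, 40 differed from 12 h and 30 from 48 h. Same-numbered naive and IONC 24 h arrays correlated at -0.06, 0.05 and 0.05 in their deviations over all tested probe sets. A correlation over all probe sets cannot show whether smaller sets of genes vary together by number, and this was not tested. For the lesions the block could not be fitted and was not run.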
